A study of Mus musculus with 51 samples.

Results

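The collagen gene family was followed through 6 tissues of mice that had undergone Roux-en-Y gastric bypass (RYGB) or sham surgery 9 weeks before. Its members were taken by name, as every gene whose symbol is Col, a number, the letter a and a number. By this rule 34 of the 14606 genes listed in any tissue are collagens, of 44 such genes in the GENCODE M21 annotation. Subcutaneous white fat (WAT) lists 29 of them among 12690 genes, gastrocnemius muscle 32 of 11594, liver 17 of 10285, duodenum 13 of 10930, jejunum 14 of 11021 and ileum 16 of 12041. Levels are in CPM, the reads of a gene scaled to a common library total. Each tissue's table keeps a gene only where the number of libraries at 1 CPM or more reaches the size of the smaller group, so the collagens listed for a tissue are those that passed this floor. Col2a1, Col4a6, Col6a5, Col9a1, Col9a2, Col9a3, Col10a1, Col17a1, Col25a1 and Col26a1 were not analysed here.

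All mice were male C57Bl6 animals made obese by diet and fed high fat food. RYGB mice had the stomach and gut rerouted so that food passes from a small pouch into the jejunum. Sham mice had a sham operation, and their food was restricted until their weight matched that of the RYGB mice, so the operation and the restricted food cannot be told apart. Both groups received an elemental liquid diet, went back to high fat food by steps, and were killed at 10 in the morning after a night without food. The libraries number 4 RYGB and 5 sham for WAT, 4 and 4 for muscle, 5 and 4 for liver, 4 and 5 for duodenum, 4 and 5 for jejunum, and 2 and 5 for ileum. They come from 10 animals, named R1 to R5 after RYGB and W3, W11, W12, W14 and W15 after sham, and most animals gave several tissues. Values per library are given in the order R1, R2, R3, R4, W11, W12, W14, W15, W3 in WAT, R1, R2, R4, R3, W11, W12, W15, W3 in muscle, and R1 to R5, W11, W14, W15, W3 in liver. The gut orders are R2, R3, R4, R5 in duodenum, R1, R2, R4, R5 in jejunum and R2, R5 in ileum, each followed by W11, W12, W14, W15, W3. For the muscle RYGB libraries the source field says sham while the title and the surgery field say RYGB, and the title and surgery field were followed. The gut samples were villi scraped off after cold EDTA, so they hold the epithelium and an unmeasured part of the connective tissue under it. The labelled tissues had their own markers, with sums of 19067 to 37932 CPM for adipocyte genes in WAT, 61658 to 141004 CPM for muscle fibre genes in muscle, 27359 to 104838 CPM for hepatocyte genes in liver and 15554 to 59211 CPM for enterocyte genes in the gut.

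Collagens are the main structural proteins of the extracellular matrix. Each is a triple helix of alpha chains, coded by separate genes and made in the endoplasmic reticulum, where prolines and lysines are hydroxylated before the chains wind together. After secretion the ends of the fibrillar procollagens are cut off and lysyl oxidases cross-link the molecules into fibres. Types I, III and V form the fibres of connective tissue, type IV the sheet of every basement membrane, and type VI a beaded mesh around cells that is abundant in fat. The remaining types decorate fibres, anchor basement membranes or sit in cell membranes. In obese fat, collagen is laid down around adipocytes mainly by fibroblasts, and every fat cell also makes its own basement membrane.

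The start regions of the genes that the results below turn on are printed here, so that the genes whose levels moved can be set beside a pair that did not pass the test. Col4a1 and Col4a2 code for the chains of the common type IV collagen and are shown because they lie head to head. Col18a1, Col16a1 and Col7a1 are shown because their levels differed between the groups in WAT. Each window runs from 250 bases before to 50 bases after the annotated start of transcription and comes from RefSeq on GRCm38.p6, which matched 28 of the 34 collagens in 30 windows. A set of 3 short motifs was searched on both strands. Capitals mark matches to the letters CCAAT or their reverse complement. Capitals also mark matches to GGGCGG or its reverse complement. The third motif, TATAAA, is in none of these windows, and no marked matches overlap. Sequences are given 5′ to 3′ on the strand of the gene.
Col4a1, chr8:11312777-11313076, minus strand: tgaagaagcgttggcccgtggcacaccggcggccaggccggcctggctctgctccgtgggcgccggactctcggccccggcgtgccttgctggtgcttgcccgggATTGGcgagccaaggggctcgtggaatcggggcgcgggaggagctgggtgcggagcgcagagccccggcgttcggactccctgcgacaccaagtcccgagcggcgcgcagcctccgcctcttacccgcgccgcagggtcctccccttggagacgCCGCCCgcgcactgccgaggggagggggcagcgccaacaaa
Col4a2, chr8:11312555-11312854, plus strand: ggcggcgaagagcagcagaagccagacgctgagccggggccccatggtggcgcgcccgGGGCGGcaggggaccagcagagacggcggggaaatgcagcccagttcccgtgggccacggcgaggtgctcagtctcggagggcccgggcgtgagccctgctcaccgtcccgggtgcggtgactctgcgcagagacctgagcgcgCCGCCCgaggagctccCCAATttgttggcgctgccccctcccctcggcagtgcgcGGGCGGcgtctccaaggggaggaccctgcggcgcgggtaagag
Col18a1 window 1, chr10:77166481-77166780, minus strand: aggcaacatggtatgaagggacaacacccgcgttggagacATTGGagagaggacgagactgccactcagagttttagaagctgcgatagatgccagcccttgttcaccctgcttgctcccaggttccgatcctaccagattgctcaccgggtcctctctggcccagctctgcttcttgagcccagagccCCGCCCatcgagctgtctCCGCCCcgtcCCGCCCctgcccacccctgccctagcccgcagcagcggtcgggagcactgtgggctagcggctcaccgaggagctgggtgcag
Col18a1 window 2, chr10:77113656-77113955, minus strand: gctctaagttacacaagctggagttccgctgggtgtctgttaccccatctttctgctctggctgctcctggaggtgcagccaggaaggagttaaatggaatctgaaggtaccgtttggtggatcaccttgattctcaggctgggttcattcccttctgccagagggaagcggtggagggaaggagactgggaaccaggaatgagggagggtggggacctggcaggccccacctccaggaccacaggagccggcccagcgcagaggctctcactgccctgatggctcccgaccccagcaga
Col16a1, chr4:130047590-130047889, plus strand: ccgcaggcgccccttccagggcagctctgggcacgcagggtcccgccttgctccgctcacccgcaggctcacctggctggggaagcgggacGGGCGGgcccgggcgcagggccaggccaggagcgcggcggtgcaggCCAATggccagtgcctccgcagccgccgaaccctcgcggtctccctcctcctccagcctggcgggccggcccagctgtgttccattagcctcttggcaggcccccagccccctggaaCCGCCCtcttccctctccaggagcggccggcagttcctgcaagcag
Col7a1, chr9:108953336-108953635, plus strand: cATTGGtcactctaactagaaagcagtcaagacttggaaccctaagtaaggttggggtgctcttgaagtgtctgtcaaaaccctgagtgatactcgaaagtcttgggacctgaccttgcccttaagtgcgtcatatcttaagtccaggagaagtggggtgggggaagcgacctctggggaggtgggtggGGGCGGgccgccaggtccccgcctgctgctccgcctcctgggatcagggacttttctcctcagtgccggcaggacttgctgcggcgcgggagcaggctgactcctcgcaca
The letters GGGCGG stood in 19 of the 30 collagen windows (63.3%) and in 35.6% of all 32817 windows of this length. CCAAT stood in 10 of 30 (33.3%) against 37.4% of all windows, and TATAAA in 3 of 30 (10%) against 13.6%. The median share of G and C was 60.7% in the collagen windows and 52.7% in all windows. The windows of Col4a1 and Col4a2 overlap by 78 bases and their start sites lie 21 bases apart, on opposite strands. The annotated genes themselves overlap at their starts, and no source used here says whether reads were counted by strand, so reads from that overlap cannot be told apart. The second window of Col18a1, the start of a shorter transcript, holds none of the 3 motifs.

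In WAT the 5 most abundant collagens did not differ between RYGB and sham mice beyond the spread between animals, while 7 collagens of lower level fell after RYGB and 1 rose. Level did not divide the family cleanly, as Col18a1, which fell, averaged 125 CPM in sham fat, above Col5a1 at 97.1 CPM, which did not pass. By limma on log2(CPM + 1), at an adjusted p below 0.05 (Benjamini-Hochberg, across every gene in the tissue's table), 8 of the 29 collagens passed (27.6%), against 40.6% of all genes. Of these, 7 fell (Col18a1, Col16a1, Col8a1, Col4a3, Col4a5, Col12a1 and Col4a4), against 26.3% of all genes, and 1 rose (Col7a1), against 14.3% of all genes. The share of collagens that passed was below the share of all genes. Their median log2 fold change was -0.18, beside -0.16 for all genes. This match rested on single libraries, since the collagen median was -0.44 without R3, beside -0.20 for all genes, and -0.01 without R2, beside -0.11 for all genes. Both groups' values stayed apart, without overlap, in 6 of the 29 collagens (20.7%) and in 33.6% of all genes.

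Median-of-ratios size factors place the median of all WAT genes at 0.0047 in place of -0.16, a shift of -0.17 for CPM against scaled values. With that scaling the median was 0.0088 for collagens, 3 collagens rose and 7 fell, and all genes split into 2681 that rose and 2593 that fell, against 1812 and 3341 as deposited. Exon length also moved with the comparison. Genes with at least 4380 exon bases, the length of the shortest collagen, had a median log2 fold change of -0.35, and 36.4% of these 6654 genes fell and 7.41% rose. Of the 6014 shorter genes, 15.2% fell and 21.9% rose. When each library's trend with exon length was removed, 5 collagens fell (Col18a1, Col16a1, Col8a1, Col4a3 and Col4a5), 4 rose (Col7a1, Col27a1, Col11a2 and Col20a1) and the collagen median was 0.11. Over all genes 18.9% fell and 19.2% rose in that fit, with a median of 0.0052.

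Among the fibrillar collagens, 0 of 9 passed the test in WAT. Col3a1, the chain of type III collagen found in soft, extensible tissues, had 946, 322.5, 3022.6 and 1117.8 CPM in RYGB fat, against 998, 1389.7, 557.8, 586.3 and 899.2 CPM in sham fat. Its lowest and its highest value both came from RYGB mice, R2 and R3, and the sham values lay between them (log2 fold change 0.27 ± 0.53, SE; limma adjusted p = 0.703). Col1a1, the main chain of type I collagen, had 226.5, 107.8, 517.6 and 289.5 CPM in RYGB fat, against 250.1, 293.3, 121.7, 148.2 and 187.9 CPM in sham fat. Its partner chain Col1a2 had 283.1, 170.2, 785.1 and 462.6 CPM in RYGB fat, against 377.2, 497.9, 281.9, 326.8 and 401.7 CPM in sham fat. In both, R2 was the lowest and R3 the highest of all 9 libraries, and neither passed (0.37 ± 0.40 and -0.02 ± 0.37). The spread between RYGB animals was thus wider than between sham animals for all 3 of these genes, with a standard deviation of 1165 CPM in RYGB and 341 CPM in sham fat for Col3a1.

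The minor fibrillar chains pointed both ways without passing. Col5a2, whose type V collagen sets the diameter of type I fibres, averaged 158 ± 82.2 CPM in RYGB fat and 244 ± 43 CPM in sham fat (SD, n = 4 and 5), with a log2 fold change of -0.74 ± 0.29 and a limma adjusted p of 0.0599. Col27a1, a fibrillar collagen best known from cartilage, averaged 14.4 ± 8.99 CPM in RYGB fat and 6.56 ± 1.92 CPM in sham fat (0.89 ± 0.37; limma adjusted p = 0.0751). With median-of-ratios scaling Col27a1 passed in limma (1.05, adjusted p = 0.0258), as did Col20a1 (0.81, adjusted p = 0.0422). Col5a1, Col5a3, Col11a1 and Col11a2 lay between -0.51 and 0.77.

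The basement membrane collagens divided by abundance. Col4a1, one chain of the common type IV collagen, had 667.1, 779.4, 1308.5 and 799.7 CPM in RYGB fat, against 1104.2, 1086.8, 1057.8, 897.8 and 744.9 CPM in sham fat. Col4a2, its partner chain, had 327.9, 299.2, 557.9 and 372.7 CPM in RYGB fat, against 510.9, 464.4, 470.4, 389.9 and 328.9 CPM in sham fat. For both, 3 RYGB libraries lay in the lower part of the sham range or below it and R3 lay above it, and the log2 fold changes of -0.17 ± 0.21 and -0.18 ± 0.21 did not pass (limma adjusted p = 0.536 and 0.504). Per kilobase of exon, the ratio of Col4a1 to Col4a2 had a median of 1.99 in RYGB fat and 2.01 in sham fat. In WAT the median ratio of this pair was thus nearly the same in both groups. In muscle it was 2.00 in RYGB mice (1.32 to 2.71) and 1.63 in sham mice (1.47 to 1.81), with overlap.

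The 3 remaining type IV chains measured in WAT, which assemble with each other in the kidney glomerulus and are mutated in Alport syndrome, were all at low levels and all fell. Col4a3 had 1.3, 0.7, 2.8 and 1.3 CPM in RYGB fat, against 5.2, 6.5, 3.5, 4.3 and 4.6 CPM in sham fat. Every RYGB value lay below every sham value (-1.25 ± 0.25; limma adjusted p = 0.00363). Col4a5, on the X chromosome, had 2.2, 2.1, 3.7 and 3.5 CPM in RYGB fat, against 7, 7.1, 7.1, 5 and 4.7 CPM in sham fat, again without overlap (-0.90 ± 0.21; limma adjusted p = 0.0076). Col4a4, which lies 71 bases from Col4a3 in the genome, had 0.6, 0.8, 3 and 1.1 CPM in RYGB fat, against 3.2, 2.6, 3.6, 2.9 and 2.7 CPM in sham fat. The groups of Col4a4 overlapped through R3, and its call (-0.85 ± 0.27; limma adjusted p = 0.0266) was lost without R1, R2, W11, W14 or W15, with limma adjusted p of 0.0536 to 0.0729. That call was also lost after the trend with exon length was removed (limma adjusted p = 0.172). Col4a3 and Col4a4 did not reach 1 CPM in every RYGB library, so both passed the floor of the WAT table only with their sham libraries. Their falls are in part set by that floor.

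**Figure D1:**
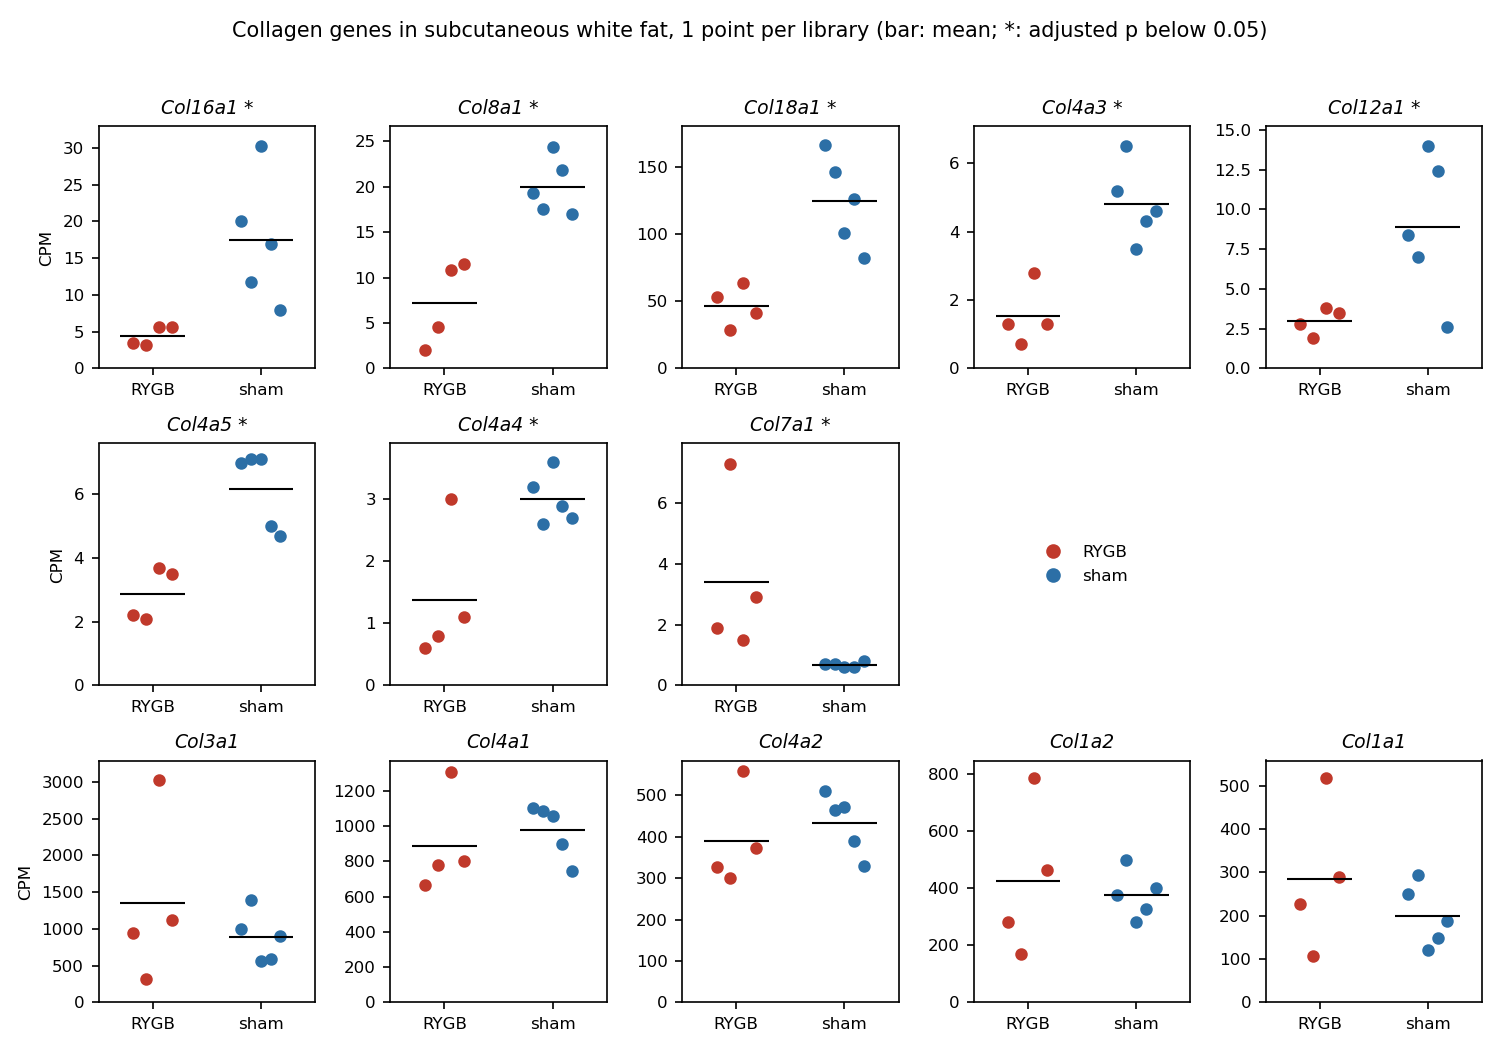
CPM of 13 collagen genes in subcutaneous white fat, 1 point per library, with RYGB left of sham and a bar at each group's mean; each panel has its own axis from 0. The upper 2 rows hold the 8 genes with an adjusted p below 0.05, of which only Col7a1 is higher after RYGB; the bottom row holds the 5 most abundant collagens, in which the RYGB values spread across the sham range and R3 is the highest point.

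Of the collagens that form other networks, Col8a1 fell and Col7a1 rose. Col8a1, a short-chain collagen made by vascular and mesenchymal cells, had 2, 4.6, 10.8 and 11.5 CPM in RYGB fat, against 19.3, 17.5, 24.4, 21.8 and 17 CPM in sham fat. No RYGB library reached the lowest sham library (-1.56 ± 0.38; limma adjusted p = 0.00803). Col7a1, which forms the fibrils that anchor epithelium to the dermis, had 1.9, 7.3, 1.5 and 2.9 CPM in RYGB fat, against 0.7, 0.7, 0.6, 0.6 and 0.8 CPM in sham fat. All 4 RYGB libraries were above all 5 sham libraries, with R2 the farthest (1.22 ± 0.31; limma adjusted p = 0.011). Every sham value was below 1 CPM, so Col7a1 passed the floor of the WAT table only through its RYGB libraries. Its separation and its call are in part set by that floor. Of 6 markers of skin and mammary epithelium, 5 are not in the table and Trp63 rose, with 10.8, 17.9, 15.8 and 1.7 CPM in RYGB fat, against 2.7, 2.1, 1.7, 3 and 3 CPM in sham fat. R4 had more Col7a1 than any sham mouse and no more Trp63 than they had, and the part of epithelium in the rise was not tested.

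The collagens that sit on fibres (FACIT collagens) include the largest fall of the family. Col16a1 had 3.4, 3.2, 5.7 and 5.6 CPM in RYGB fat, against 20.1, 11.8, 30.2, 16.9 and 8 CPM in sham fat. The groups did not overlap and the sham values spread over a wide range (-1.66 ± 0.33; limma adjusted p = 0.0035). Col12a1, which links type I fibres to their surroundings, had 2.8, 1.9, 3.8 and 3.5 CPM in RYGB fat, against 8.4, 7, 14, 12.4 and 2.6 CPM in sham fat. W3 was the sham library within the RYGB range, and the call (-1.17 ± 0.38; limma adjusted p = 0.0303) was lost without R1, R2, W11, W12, W14 or W15, with adjusted p of 0.051 to 0.0754. It was lost as well with library weights and with the length trend removed (limma adjusted p = 0.0691 and 0.206). Col14a1 (-0.50 ± 0.45) and Col20a1 (0.66 ± 0.27) did not pass.

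The 2 multiplexins, large proteoglycan-like collagens of the basement membrane zone, lay on opposite sides. Col18a1, whose end fragment is the angiogenesis inhibitor endostatin, had 53.3, 28.9, 63.6 and 41.2 CPM in RYGB fat, against 166.6, 146.7, 101.1, 126.6 and 82.2 CPM in sham fat. Its groups stayed apart, and its adjusted p was the lowest of the family (-1.41 ± 0.26; limma adjusted p = 0.00208). Col15a1 had 221.3, 36.9, 258.6 and 255.8 CPM in RYGB fat, against 102.9, 139, 69.3, 60.7 and 65.2 CPM in sham fat. Here 3 RYGB libraries were above all sham libraries and R2 was below them, and the difference did not pass (0.87 ± 0.53; limma adjusted p = 0.202). Per kilobase of exon, the ratio of Col18a1 to Col15a1 was 0.218, 0.708, 0.222 and 0.146 in RYGB fat, against 1.46, 0.954, 1.32, 1.89 and 1.14 in sham fat. The ratio was below 1 in all 4 RYGB libraries and above 1 in 4 of the 5 sham libraries, and the groups did not overlap. In muscle its medians were 0.249 in RYGB and 0.241 in sham mice, with overlap. It was looked at after the values were seen and carries no test.

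Beaded filament and membrane collagens did not pass in WAT. Col6a1, Col6a2 and Col6a3, the chains of type VI collagen, had log2 fold changes of -0.18 ± 0.28, -0.21 ± 0.36 and -0.07 ± 0.43, and averaged 167 ± 66.3, 142 ± 68.9 and 185 ± 114 CPM in RYGB fat and 181 ± 44, 149 ± 36.1 and 163 ± 32.6 CPM in sham fat. Col6a6, Col13a1, Col23a1 and Col28a1 lay between -0.51 and -0.07. All collagens together took 0.226% to 0.814% of CPM in RYGB fat (median 0.405%), against 0.351% to 0.544% in sham fat (median 0.382%). R2 had the lowest value of 18 of the 29 collagens among the 9 libraries, and R3 the highest of 12. How often each library held the extreme value over all genes was not counted, here or in the other tissues.

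Among the genes that make, process and bind collagen, falls outnumbered rises in every list, as they did among all WAT genes (26.3% fell and 14.3% rose) and among the genes of at least 4380 exon bases (36.4% and 7.41%). The counts below are to be read beside these shares. Of 21 measured genes for collagen synthesis and secretion, 8 fell (38.1%, near the share of long genes) and 0 rose (median log2 fold change -0.38). Of 11 genes for procollagen cleavage and cross-linking, 7 fell (63.6%) and 0 rose (median -0.68). Lox, the lysyl oxidase that starts cross-linking, had 67.6, 105.8, 195.3 and 93.5 CPM in RYGB fat, against 1022.7, 968.7, 1329.3, 984.5 and 671 CPM in sham fat. The highest RYGB library was far below the lowest sham library (-3.17 ± 0.29; limma adjusted p = 7.35e-05). Pcolce2, an enhancer of procollagen cleavage, averaged 7.42 ± 5.11 CPM in RYGB fat and 40.0 ± 12.5 CPM in sham fat (-2.43 ± 0.42), and Adamts2, which removes the amino-terminal propeptide, 34.0 ± 16.8 CPM in RYGB fat and 81.6 ± 13.6 CPM in sham fat (-1.35 ± 0.29). Plod2, the hydroxylase that prepares the ends of the chains for cross-linking, averaged 15.5 ± 7.68 CPM in RYGB fat and 37.7 ± 4.18 CPM in sham fat (-1.33 ± 0.26). All of these passed with an adjusted p below 0.05, while Sparc, a collagen chaperone in the matrix, did not (-0.74 ± 0.29; limma adjusted p = 0.0594).

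Receptors, small proteoglycans and other matrix genes had falls and no rises. Of 9 collagen receptors 6 fell (66.7%), with 0 rising (median -1.32), among them the integrin chains Itga1 (-1.90 ± 0.31) and Itgb1 (-1.26 ± 0.23), the kinase receptor Ddr2 (-1.37 ± 0.28) and the uptake receptor Mrc2 (-2.15 ± 0.43). Of 9 small proteoglycans that bind fibres 8 fell (88.9%; median -1.28). Prelp averaged 134.8 ± 55.9 CPM in RYGB fat and 1373 ± 402 CPM in sham fat (-3.42 ± 0.36), and Dcn, which regulates the width of fibres, 703 ± 210 CPM in RYGB fat and 1458 ± 132 CPM in sham fat (-1.10 ± 0.21). Of 15 proteins that share basement membranes with type IV collagen 10 fell (66.7%; median -0.89), including the nidogen Nid1 (-1.26 ± 0.25) and the laminin chain Lamb2 (-1.31 ± 0.16). Of 15 other matrix proteins 7 fell (46.7%; median -0.72), with the elastic fibre protein Fbln5 at 38.5 ± 18 CPM in RYGB fat and 411.7 ± 56.9 CPM in sham fat (-3.50 ± 0.28).

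Enzymes that break collagen down and their inhibitors were mixed. Of 11 measured, 6 fell (54.5%) and 1 rose (median -1.01), and those that fell include the inhibitors Timp2 (-1.41 ± 0.28), Timp3 (-1.37 ± 0.18) and Timp4 (-2.04 ± 0.35). Timp1, named after its value was seen because it alone rose, averaged 1.62 ± 0.854 CPM in RYGB fat and 0.38 ± 0.217 CPM in sham fat (0.89 ± 0.23; limma adjusted p = 0.012). With sham levels below the floor of 1 CPM, Timp1 is in the table through its RYGB libraries, which in part sets its rise. Of 12 genes of the TGF-beta pathway, a main inducer of collagen genes, 9 fell (75%) and 0 rose (median -0.90). Tgfb3, a ligand, fell to 4.25 ± 0.839 CPM in RYGB fat, against 14.4 ± 2.78 CPM in sham fat (-1.55 ± 0.20).

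**Figure D2:**
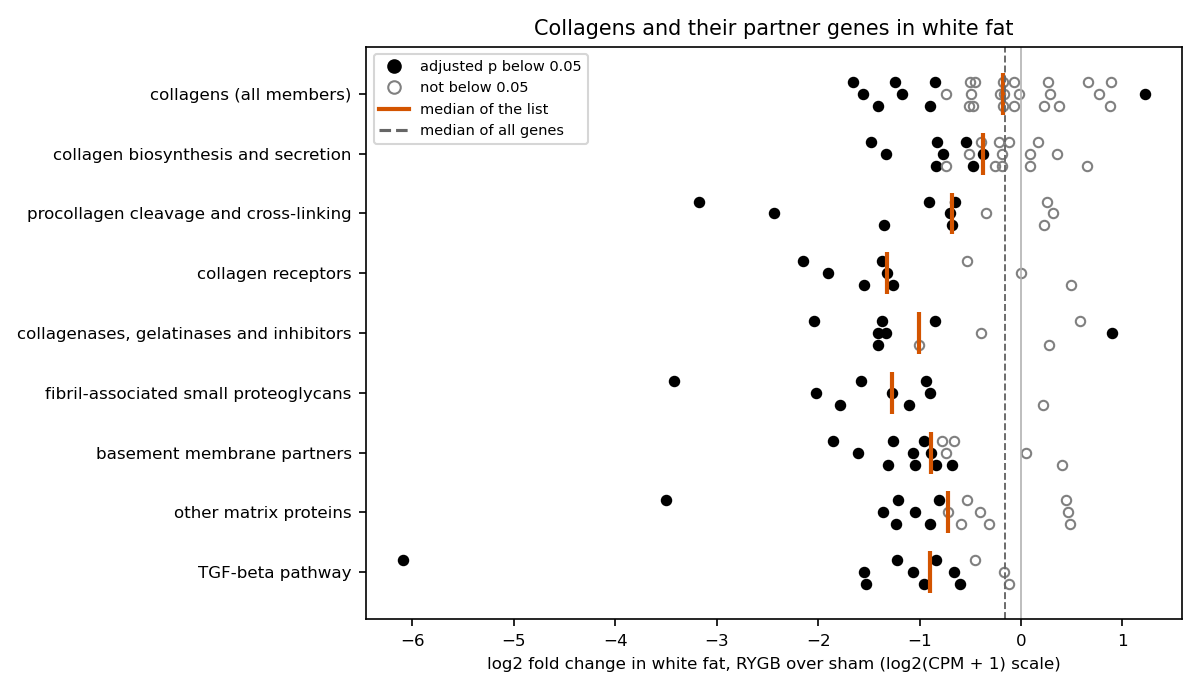
Log2 fold change in white fat, RYGB over sham, on the log2(CPM + 1) scale for the 29 collagens and 8 lists of genes that work with them, 1 point per gene, filled where the adjusted p is below 0.05; the orange bar is the list's median and the dashed line the median of all genes at -0.16. The collagen median lies on that line, while the medians of receptors and small proteoglycans lie at -1.32 and -1.28.

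These counts depended in part on scaling and length. With median-of-ratios scaling, synthesis genes split into 2 that rose and 4 that fell, and cleavage and cross-linking genes into 0 and 3. Receptors kept 6 falls, small proteoglycans had 7, basement membrane partners 9, other matrix proteins 7 with 1 rise, the breakdown list 6 with 2 rises, and the TGF-beta list 8. With the trend in exon length removed, falls numbered 4, 3, 6, 8, 6, 4, 7 and 8 in the lists for synthesis, cross-linking, receptors, small proteoglycans, basement membrane partners, other matrix, breakdown and TGF-beta, and rises 1, 1, 0, 0, 2, 3, 0 and 0. Over all genes 20.4% fell and 21.1% rose with scaling, and 18.9% fell and 19.2% rose with the length trend removed.

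Markers of cells that can make collagen were counted in the same way. Of 10 fibroblast markers 3 fell (Gsn, Dpt and Pdgfra; 30%, near the 26.3% of all genes), 7 did not pass and 0 rose, and their sum ranged from 4269 to 4904 CPM in RYGB fat and from 11145 to 13682 CPM in sham fat, of which Gsn, also made by other cells, was the largest part. Pdgfra, the receptor that defines fat fibroblasts, averaged 48.3 ± 14.2 CPM in RYGB fat and 100.9 ± 10.9 CPM in sham fat (-1.08 ± 0.18). Of 8 smooth muscle and pericyte markers 4 fell (50%) and 2 rose (25%), with sums of 614 to 1101 CPM in RYGB fat and 1219 to 2243 CPM in sham fat. Acta2, smooth muscle actin, had 32.7, 71.8, 29.8 and 37.1 CPM in RYGB fat, against 961, 768.7, 1002.5, 614.3 and 247.3 CPM in sham fat. Its 2 groups did not overlap (-3.97 ± 0.40; limma adjusted p = 0.000125). Cspg4, from the same list, lay the other way without overlap, at 126.8, 118, 70.3 and 61.8 CPM in RYGB fat, against 30.2 to 52.7 CPM in sham fat. Des had 16.7, 22.3, 14 and 28 CPM in RYGB fat, against 10.1 to 14.6 CPM in sham fat. Endothelial markers (1 of 9 fell) summed to 1098 to 2143 CPM in RYGB fat and 1734 to 2346 CPM in sham fat, and macrophage markers (2 of 7 fell) to 492 to 960 CPM in RYGB fat and 472 to 743 CPM in sham fat. Adipocyte markers (1 rose and 1 fell of 7) summed to 19097 to 37932 CPM in RYGB fat and 19067 to 22747 CPM in sham fat. Markers of tissues other than fat were also counted: of 7 stellate cell genes 2 rose, of 5 hepatocyte genes 1 rose and 2 fell, of 6 muscle fibre genes 1 fell, of 3 enterocyte genes 1 fell and of 2 acinar genes 2 fell. Among 6 Schwann cell markers 1 rose, among 3 tendon markers 1 rose and 2 fell, and 0 of 6 lymphocyte markers and 0 of 1 mesothelial marker passed. The part of these cells in the collagen changes was not tested, and in whole tissue fewer cells of a type and less RNA per cell cannot be told apart.

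In muscle no collagen passed, and neither did any other gene. Limma called 0 of 11594 genes (0%), with 812 at an unadjusted p below 0.05, and 0 of 32 collagens, with Col23a1, a membrane collagen, the 1 at an unadjusted p below 0.05 (0.50 ± 0.21; limma adjusted p = 0.682). The median log2 fold change was 0.14 for collagens and -0.0027 for all genes, and that of collagens was 0.53 without R2 and -0.07 without R3. Col1a1 had 112, 11.6, 196.9 and 636.8 CPM in RYGB muscle, against 95.5, 122.2, 45.6 and 57.9 CPM in sham muscle. Col1a2 had 199.2, 33.4, 239 and 980.9 CPM in RYGB muscle, against 204.5, 267, 101.5 and 139.7 CPM in sham muscle. In both R2 was the lowest and R3 the highest of all libraries, with the sham values between them (0.62 ± 0.98 and 0.26 ± 0.83). Col3a1 had 399.9, 35, 544.2 and 464.3 CPM in RYGB muscle, against 239.7, 133.5, 126.5 and 144.2 CPM in sham muscle. Again R2 was lowest, and the other 3 RYGB libraries were above the sham libraries (0.65 ± 0.77). Without R2, 1 collagen passed, higher in RYGB muscle, as did 0.121% of all genes.

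The basement membrane pair spanned a narrower range in muscle than the type I and III chains. Col4a1 had 134.5, 117, 152.2 and 191.1 CPM in RYGB muscle, against 141.4, 93.2, 140.8 and 103.9 CPM in sham muscle (0.31 ± 0.22). Col4a2 had 65.4, 47.8, 49.8 and 128.2 CPM in RYGB muscle, against 73.3, 53.4, 85.1 and 50.9 CPM in sham muscle (0.06 ± 0.31). The groups overlapped in both. Muscle also listed Col22a1, a collagen of the junction between muscle and tendon, at 28.4 ± 11.2 CPM in RYGB muscle and 27.4 ± 4.65 CPM in sham muscle (SD, n = 4 each). Over all 32 collagens, R2 had the lowest value in 22 and R3 the highest in 21. Tendon markers summed to 207 to 629 CPM in RYGB muscle and 180 to 547 CPM in sham muscle, fibroblast markers to 646 to 1199 CPM in RYGB and 899 to 1071 CPM in sham muscle, and Schwann cell markers to 76.4 to 320.5 CPM in RYGB and 35.6 to 59.2 CPM in sham muscle. Every list of partner or marker genes had 0 called in muscle.

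R2 and R3 stood out for many collagens in both fat and muscle. Each library's deviation from the mean of its group on the log2(CPM + 1) scale was compared between the tissues over the 8 animals with both. For Col1a1, Pearson's r was 0.979 and Spearman's rho 0.976, each with an exact permutation p of 0.00174, the smallest that the 576 arrangements within groups allow. Adjusted over the 11092 genes in both tissues, the p was 0.616 for r and 0.786 for rho, so the relation does not pass. For Col1a2, r was 0.955 and rho 0.786 (exact permutation p = 0.00694 and 0.0243, adjusted p = 0.616 and 0.805). For Col3a1, r was 0.772 and rho 0.643 (exact permutation p = 0.148 and 0.101, adjusted p = 0.804 and 0.876). Without the 2 animals farthest from the median in WAT, r was 0.954 for Col1a1, 0.676 for Col1a2 and 0.188 for Col3a1, so the relation of Col3a1 rested on those animals. Over all 28 collagens in both tissues the median r was 0.65, beside -0.08 over all genes, and r was at least 0.7 in 11 of 28 collagens (39.3%) and in 5.76% of all genes. Of those 11, only Col1a1 kept an r of at least 0.7 without the 2 animals farthest from the median of the gene in WAT. For Col6a1, Col6a2 and Col6a3 r went from 0.88, 0.92 and 0.90 to -0.21, 0.25 and 0.05, so this share rested largely on such animals. The same was not looked at over all genes. The collagens share these animals and libraries and are not independent of each other, and the relation was looked for after the levels of R2 and R3 had been seen.

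**Figure D3:**
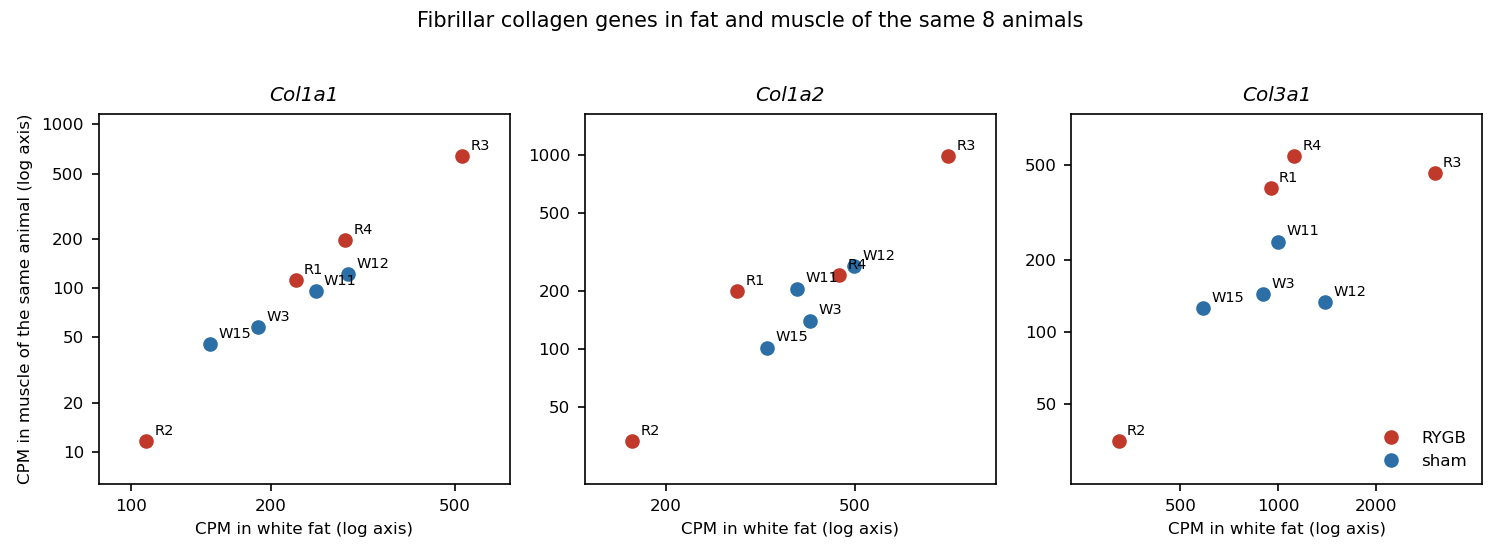
CPM in white fat (horizontal, log axis) against CPM in muscle (vertical, log axis) for Col1a1, Col1a2 and Col3a1 in the same 8 animals, red for RYGB and blue for sham. R2 is lowest in both tissues and R3 is highest in both for Col1a1 and Col1a2, while in muscle R4 has more Col3a1 than R3.

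Whether the effect of RYGB differed between WAT and muscle was tested with limma in a joint fit of both tissues, blocked on the animal, over 4 RYGB and 4 sham animals. The RYGB effect in WAT was lower than in muscle for 5 of 28 collagens (17.9%) and higher for 0, against 8.36% and 4.48% of all genes and 12.8% in either direction. In the same animals Col18a1 had a log2 fold change of -1.47 in WAT and 0.28 in muscle (difference -1.75 ± 0.30; limma adjusted p = 0.00613). Col16a1 had -1.43 in WAT and 0.30 in muscle (-1.73 ± 0.36; limma adjusted p = 0.0124), and Col4a3 had -1.33 in WAT and 0.15 in muscle (-1.48 ± 0.32; limma adjusted p = 0.0152). In WAT, Col4a3 passed the floor only with its sham libraries. Col8a1 (-1.68 ± 0.50) and Col5a2 (-1.09 ± 0.29) also passed, with limma adjusted p of 0.046 and 0.0347. Leaving out animals 1 at a time gave 2 to 10 calls, with 10 without R3 (32.8% of all genes passed in that fit), 2 without W15 (4.75% of all genes) and 3 without R1, R4, W3, W11 or W12. Col18a1 and Col16a1 passed in all 8 of these fits, Col4a3 failed without W15, and Col8a1 and Col5a2 failed in 6 of the 8, without R1, R4, W3, W11, W12 or W15. With median-of-ratios scaling, which moves the median of all differences (shift of -0.17), 3 collagens passed, and all genes split into 702 higher and 698 lower in WAT, against 497 and 927 as deposited.

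In liver the collagens made a small part of the RNA and 0 of 17 passed, against 4.63% of all genes (2.03% rose and 2.6% fell). Without W11, 1 passed, higher in RYGB liver, as did 8.42% of all genes. Against scaled values, CPM shift the median of all liver genes by 0.18 on the log2 scale. The median log2 fold change was 0.47 for collagens and 0.26 for all genes, and without R1 it was 0.25 for collagens and 0.31 for all genes. Col14a1, a FACIT collagen, was the most abundant per kilobase of exon, with 81.8, 34.5, 86.2, 79.8 and 69.1 CPM in RYGB liver, against 88.7, 70.3, 13.1 and 21.2 CPM in sham liver. Col3a1 had 30.3, 41, 54.1, 68.5 and 23.7 CPM in RYGB liver, against 43.2, 44, 5.3 and 5.2 CPM in sham liver. In both genes W15 and W3 were below all RYGB animals, while W14 was inside their range and W11 inside or just above it (0.85 ± 0.52 and 1.32 ± 0.64). Col4a1 had 12.6, 43.5, 24.5, 19.6 and 13.6 CPM in RYGB liver, against 16.8, 10.4, 4.8 and 4.3 CPM in sham liver, and had the lowest adjusted p of the liver collagens (1.28 ± 0.47; limma adjusted p = 0.0929).

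Col18a1, which hepatocytes also make, had 13.8, 30.8, 165, 133.7 and 20.4 CPM in RYGB liver, against 23.9, 33.1, 8.3 and 19.4 CPM in sham liver. R3 and R4 were far above the rest, and the other 3 RYGB animals lay in the sham range (1.22 ± 0.70; limma adjusted p = 0.222). Col1a2 had 9.4, 11.3, 12.4, 11.3 and 7.8 CPM in RYGB liver, against 18.1, 14.4, 6.9 and 7.7 CPM in sham liver (-0.08 ± 0.37). Its RYGB values sat within the sham range. Col1a1 and Col27a1 pointed down without passing (-1.03 ± 0.44 and -0.92 ± 0.42; limma adjusted p = 0.128 and 0.147). Of partner genes in liver, P4ha1, a prolyl hydroxylase subunit, rose, with 21.3 ± 8.78 CPM in RYGB and 6.15 ± 3.57 CPM in sham liver (1.69 ± 0.44; limma adjusted p = 0.0484). Sparc also rose (1.90 ± 0.48), and Mia3, which loads collagen into transport vesicles, fell (-1.12 ± 0.27), so that 2 of 15 synthesis genes rose and 1 fell. Of 6 breakdown genes 1 fell (Timp3, -1.29 ± 0.32), of 13 basement membrane partners 1 rose (Sparc) and 1 fell (Lamb3, -1.51 ± 0.35), and the receptor, cross-linking, proteoglycan, matrix and TGF-beta lists had 0 called. Lamb3 passed the floor of the liver table only with its sham libraries, which in part sets its fall.

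Hepatic stellate cells are the main source of liver collagen, and of 5 markers of them 1 fell (Reln, -1.41 ± 0.31) and 0 rose, with sums of 210 to 432 CPM in RYGB liver and 408 to 460 CPM in sham liver. Of 7 macrophage markers 2 rose, Lyz2 and Csf1r, with sums of 178 to 1072 CPM in RYGB liver and 146 to 250 CPM in sham liver. Of 6 hepatocyte markers 1 rose, and of 7 endothelial markers 1 rose (Pecam1), with sums of 166 to 327 CPM in RYGB liver and 188 to 244 CPM in sham liver. The other marker lists had 0 called, and the part of these cells in the collagen values was not tested. Between WAT and liver, over 4 RYGB and 4 sham animals, 3 of 17 collagens differed in their RYGB effect, against 12.9% of all genes, 1 of them higher in WAT (3.37% of all genes) and 2 lower in WAT (9.51%). Col18a1 had a log2 fold change of -1.34 in WAT and 1.51 in liver (difference -2.85 ± 0.72; limma adjusted p = 0.0248), and Col4a1 had -0.13 in WAT and 1.42 in liver (-1.55 ± 0.45; limma adjusted p = 0.0416). Col27a1 had 0.94 in WAT and -1.01 in liver (1.95 ± 0.56; limma adjusted p = 0.0389). Leaving out animals 1 at a time gave 0 to 4 calls, with 0 without R4 or W15 (7.95% and 3.89% of all genes passed) and 1 without R2, R3, W3 or W14, and each of the 3 genes failed in 5 of the 8 fits. With scaling (shift of -0.34 in the median of all differences), 2 collagens were higher and 1 lower in WAT, and all genes split into 598 higher and 681 lower, against 327 and 923 as deposited.

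In the villus preparations of the gut, collagens were near the floor of measurement. They took 0.000708% to 0.00866% of CPM in RYGB duodenum and 0.00195% to 0.00693% in sham duodenum, 0.000717% to 0.0182% in RYGB and 0.00138% to 0.00855% in sham jejunum, and 0.000423% to 0.0184% in RYGB and 0.000514% to 0.0129% in sham ileum. In muscle the shares were 0.0399% to 0.322% in RYGB and 0.0805% to 0.117% in sham mice, and in liver 0.0169% to 0.0388% in RYGB and 0.00682% to 0.0241% in sham mice. The tissues' tables were made separately, so these shares are set side by side as descriptions.

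**Figure D4:**
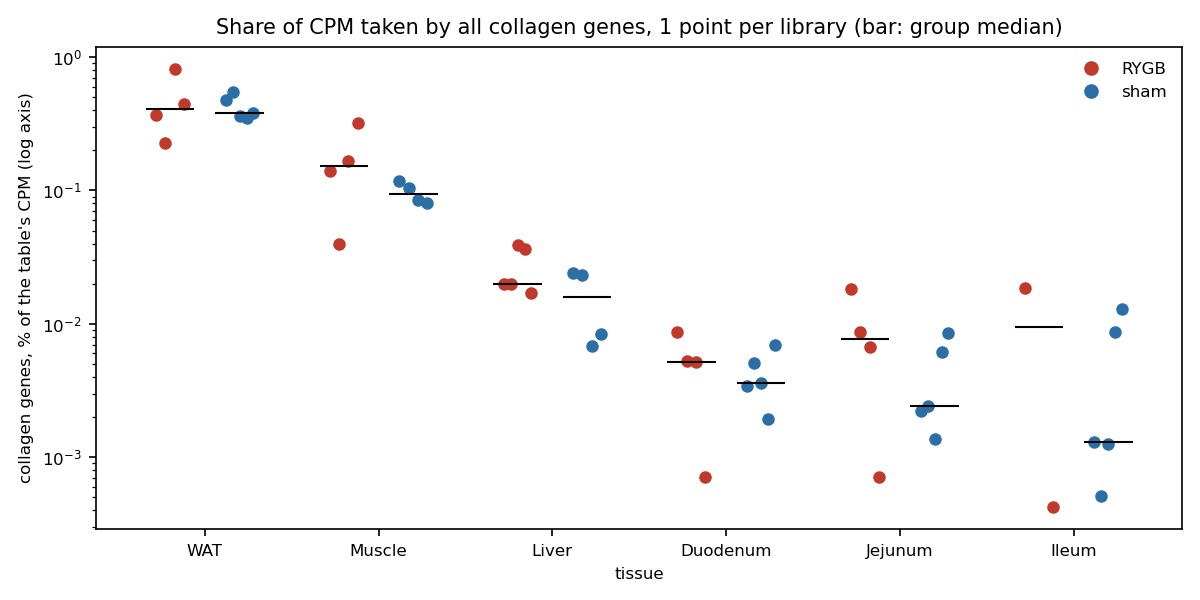
Share of each library's CPM taken by all its collagen genes (vertical, percent, log axis) by tissue, 1 point per library, with RYGB in red left of sham in blue and a bar at the group median. Shares are highest in white fat, at 0.226% to 0.814% after RYGB and 0.351% to 0.544% after sham, and lowest in the gut, and the groups overlap in every tissue.

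In jejunum 1 of 14 collagens passed (7.14%), against 12.6% of all genes (6.32% rose and 6.29% fell). Col20a1, a FACIT collagen, fell, with 1.6, 1.4, 0.9 and 1.6 CPM in RYGB jejunum, against 3.7, 4.4, 3.6, 2.9 and 3.2 CPM in sham jejunum. All RYGB libraries were below all sham libraries (-0.94 ± 0.20; limma adjusted p = 0.0177), and the call was lost without W12 (adjusted p = 0.0543) and when genes under a mean of 5 CPM were left out, since it is below that level itself. With R4 at 0.9 CPM, Col20a1 passed the floor of the jejunum table only with its sham libraries, which in part sets its fall. The median log2 fold change was 0.50 for collagens and 0.08 for all genes, and that of collagens was 0.11 without R1 and 1.10 without R5. Col3a1 had 43.6, 31.5, 17 and 0.9 CPM in RYGB jejunum, against 4.1, 4.1, 1.7, 17.6 and 17.2 CPM in sham jejunum. Col1a1 had 17.2, 8.5, 3.4 and 0.1 CPM in RYGB jejunum, against 0.2, 0.3, 0, 1.4 and 4.6 CPM in sham jejunum. R5 was the lowest RYGB animal in both, among or below the lowest sham animals, and R1 was the highest of all.

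Col1a2 had 19.8, 12.1, 6.5 and 0.3 CPM in RYGB jejunum, against 0.7, 0.5, 0.4, 2.8 and 10.3 CPM in sham jejunum. Col4a1 had 20.4, 6.6, 6 and 0.6 CPM in RYGB jejunum, against 1.6, 2.3, 0.2, 5.9 and 9.6 CPM in sham jejunum. Col15a1 had 14.2, 0.7, 11.4 and 0.9 CPM in RYGB jejunum, against 2.6, 3.1, 2, 2.5 and 5.5 CPM in sham jejunum. These 5 abundant jejunal collagens overlapped between the groups and did not pass, with log2 fold changes of 0.99 ± 0.92 for Col3a1, 1.55 ± 0.78 for Col1a1, 1.39 ± 0.84 for Col1a2, 0.80 ± 0.77 for Col4a1 and 0.32 ± 0.66 for Col15a1. R1 had the highest value of 11 of the 14 collagens. Without R5, 4 of 14 collagens passed, 3 higher and 1 lower in RYGB jejunum, beside 9.78% of all genes higher and 10.7% lower in that fit. Fibroblast markers summed to 1323 to 1494 CPM in RYGB jejunum and 1581 to 1883 CPM in sham jejunum, with Gsn rising (2.29 ± 0.53). Dpp4 made most of these sums, at 1098.4 to 1346.3 CPM in RYGB and 1512.8 to 1861.2 CPM in sham jejunum, so they mainly follow that gene. Whether Dpp4 came from fibroblasts or from the epithelium was not tested. Endothelial markers summed to 2.2 to 52.8 CPM in RYGB and 2.8 to 30.6 CPM in sham jejunum. Of the other marker lists in jejunum, 2 of 3 skin and mammary genes and 1 of 3 adipocyte genes rose, 1 of 6 enterocyte, 1 of 4 hepatocyte and 1 of 2 stellate cell genes fell, and the rest had 0 called. Their part in the collagen values was not tested.

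Among partner genes in jejunum, 1 of 2 cleavage genes fell, Bmp1, which removes the carboxy-terminal propeptide, with 21.9 ± 14.5 CPM in RYGB and 89.7 ± 20.4 CPM in sham jejunum (-2.23 ± 0.42; limma adjusted p = 0.0127). Of 3 small proteoglycans 1 fell (Podn, -1.83 ± 0.50), of 8 receptors 1 fell (Gpr56, a receptor for type III collagen, -0.76 ± 0.21), and 0 of 12 synthesis, 0 of 7 breakdown, 0 of 11 basement membrane, 0 of 4 other matrix and 0 of 8 TGF-beta genes passed. The RYGB effect differed between WAT and jejunum for 7 of 13 collagens (53.8%), 2 higher and 5 lower in WAT, against 29.8% of all genes, 10.1% higher and 19.7% lower. This fit holds the 3 RYGB animals with both tissues (R1, R2 and R4) and 5 sham animals. It leaves out R3 in WAT and R5 in jejunum. Within each tissue alone, the WAT collagen median was -0.44 without R3 in place of -0.18. The jejunal one was 1.10 without R5 in place of 0.50. Both changes widen the difference between the tissues, and how far the 53.8% depends on them was not tested. Col18a1 had a log2 fold change of -1.57 in WAT and 0.95 in jejunum (difference -2.53 ± 0.50; limma adjusted p = 0.00444), and Col5a2 had -1.05 in WAT and 1.18 in jejunum (-2.24 ± 0.46; limma adjusted p = 0.00532). Col20a1 had 0.68 in WAT and -0.99 in jejunum (1.68 ± 0.36; limma adjusted p = 0.00626), and Col7a1 had 1.44 in WAT and 0.21 in jejunum (1.23 ± 0.29; limma adjusted p = 0.0105). These 4 passed with each animal left out, though Col7a1 is in the WAT table only through its RYGB libraries. Likewise, Col20a1 is in the jejunum table only with its sham libraries. Col4a2 (-1.98 ± 0.51), Col1a2 (-2.61 ± 0.74) and Col1a1 (-2.30 ± 0.73) passed with limma adjusted p of 0.0158, 0.0234 and 0.0373. Without R1 all 3 failed and 4 collagens passed in all, Col1a2 also failed without R2, W11 or W14, Col1a1 without R2, W11, W12 or W14, and without R4 11 collagens passed, beside 28.8% of all genes. With scaling (shift of -0.26 in the median of all differences), all genes split into 1692 higher and 1264 lower in WAT, against 1021 and 1986 as deposited.

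In duodenum 0 of 13 collagens passed, against 0.348% of all genes (0.128% rose and 0.22% fell). Against scaled values, CPM shift the median of all duodenal genes by 0.16, and all genes split into 13 that rose and 37 that fell with scaling and 14 and 24 as deposited. Col18a1 came nearest, with 3.5, 1.8, 0.5 and 0.5 CPM in RYGB duodenum, against 4.3, 5.8, 7.6, 4.9 and 3.5 CPM in sham duodenum. The groups met at 3.5 CPM (-1.39 ± 0.35; limma adjusted p = 0.0699). Col7a1 had 3, 2.3, 5 and 2 CPM in RYGB duodenum, against 4.9, 9.7, 10.2, 6.2 and 3 CPM in sham duodenum (-0.89 ± 0.34; limma adjusted p = 0.154). Its sham values were mostly above, with W3 at the RYGB level. Col20a1 (-0.83 ± 0.27) and Col27a1 (-0.74 ± 0.24) pointed the same way with limma adjusted p of 0.107 and 0.11. Without R4 or W3, 1 collagen passed, lower in RYGB duodenum, as did 1.48% and 1.25% of all genes.

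The connective tissue collagens of duodenum varied with the animal. Col3a1 had 37.8, 28.3, 16.8 and 0.8 CPM in RYGB duodenum, against 5.3, 8.6, 2.2, 0 and 15.1 CPM in sham duodenum (1.47 ± 1.05). Col1a2 had 15.4, 4.5, 4.4 and 0.4 CPM in RYGB duodenum, against 1.5, 1.9, 0.5, 0.1 and 8.1 CPM in sham duodenum (1.00 ± 0.72). R5 was again the lowest RYGB animal, below most sham animals. Col15a1 had 3.3, 1.8, 12 and 1 CPM in RYGB duodenum, against 3.2, 3.6, 3.7, 2.3 and 9.1 CPM in sham duodenum (-0.24 ± 0.50). The groups overlapped. Endothelial markers summed to 1.2 to 6.9 CPM in RYGB duodenum and 3.4 to 33.9 CPM in sham duodenum, and pancreatic acinar transcripts to over 1% of CPM in R3 (1.45%) and in W11, W12 and W14 (5.85%, 8.75% and 6.0%). Without those 4 libraries 0 collagens passed, but neither did any of the 10930 genes (0%), so that fit cannot tell the collagens from the rest. The lists of partner genes had 0 called in duodenum, and of the marker lists only the enterocyte genes had a call (1 of 6 fell).

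In ileum, with 2 RYGB libraries, 0 of 12041 genes passed (0%, with 438 at an unadjusted p below 0.05), and 0 of 16 collagens. Col3a1 had 68.8 and 0.3 CPM in RYGB ileum, against 1.7, 0.1, 1.6, 13.8 and 15.3 CPM in sham ileum. Col1a2 had 54 and 0.2 CPM in RYGB ileum, against 0.6, 0.1, 1.3, 7.7 and 24.4 CPM in sham ileum, and Col1a1 had 22.7 and 0 CPM in RYGB ileum, against 0.5, 0, 0.4, 3.9 and 6.6 CPM in sham ileum. For these genes R2 was the highest of all 7 libraries and R5 among the lowest. Col4a1 had 4.8 and 0 CPM in RYGB ileum, against 0.3, 0, 1.7, 6.5 and 21.6 CPM in sham ileum. Col6a1 had 6.8 and 0 CPM in RYGB ileum, against 0.5, 0, 0.3, 11.3 and 5.8 CPM in sham ileum. In these the highest value was a sham library. R5 had the lowest value of 13 of the 16 collagens, alone in 5 of them and tied in the others, and W12 had the lowest of 10, alone in 2. The median log2 fold change was -0.12 for collagens and -0.09 for all genes, with a shift of -0.10 in all genes against scaled values. It rested on single libraries, as the collagen median was -1.12 without R2, 0.62 without R5, 0.11 without W15 and 0.06 without W3. Smooth muscle markers summed to 7.8 to 20.2 CPM in RYGB ileum and 38.1 to 107.6 CPM in sham ileum. Every list of partner or marker genes had 0 called in ileum.

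**Figure D5:**
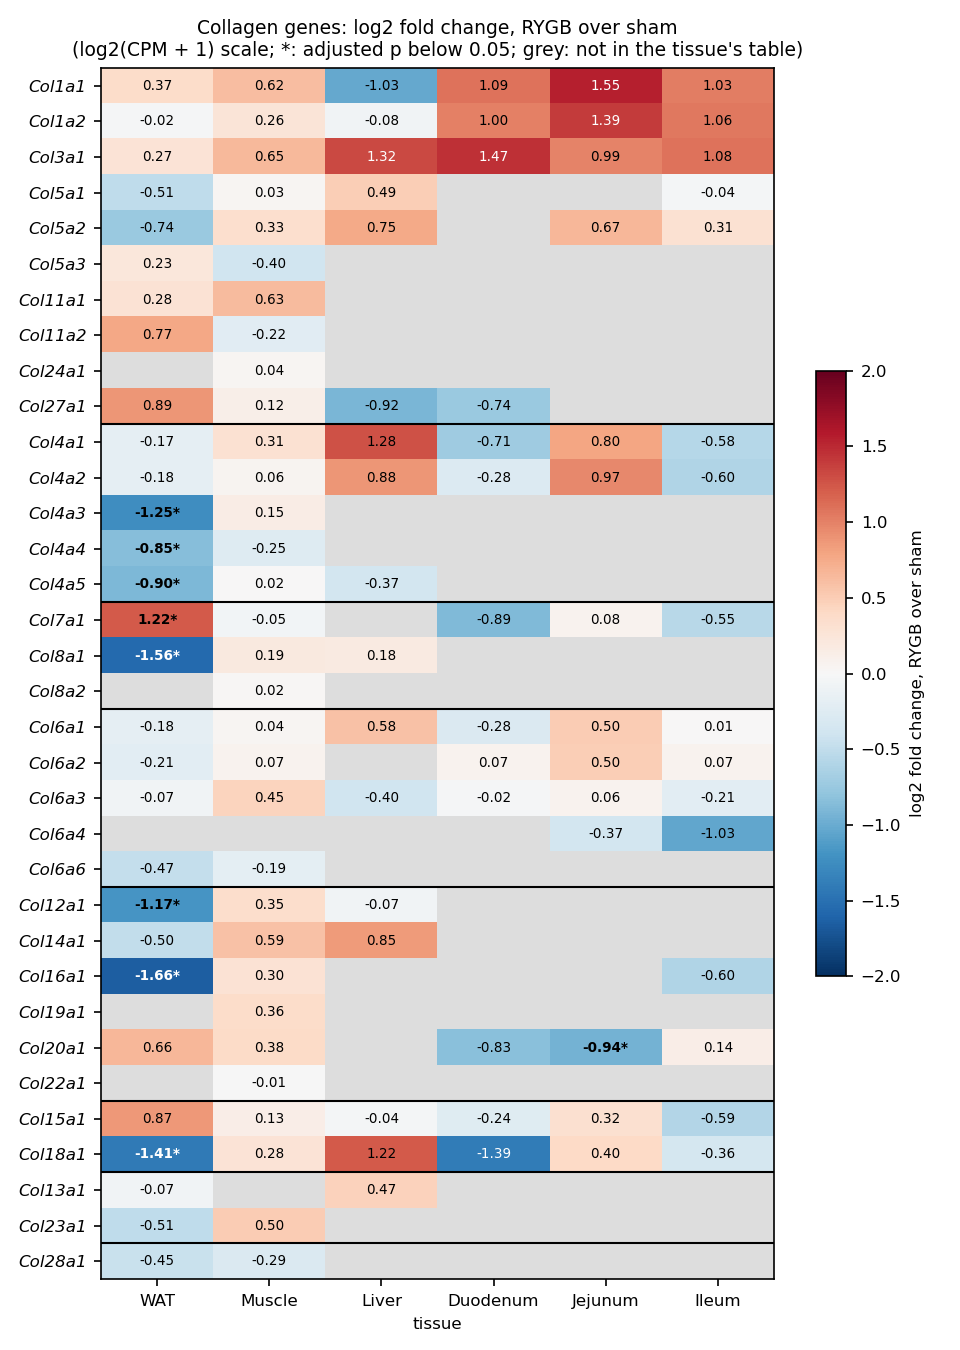
Log2 fold change of each collagen gene, RYGB over sham, on the log2(CPM + 1) scale by tissue (columns) and structural class (blocks between black lines), with an asterisk where the adjusted p is below 0.05 and grey where the gene is not in the tissue's table. The 9 asterisks stand in white fat (7 blue, 1 red) and jejunum (Col20a1, blue), and the type I and III chains are red in all gut columns without passing.

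Collagen levels were also ranked within each tissue in CPM per kilobase of exon, and Col3a1 had the highest median in muscle, duodenum and jejunum. In WAT the highest medians over all libraries were 120 for Col4a1 (range 89.4 to 175) and 96.4 for Col3a1 (32.9 to 308), followed by 58.9 for Col4a2 (45.2 to 84.3), 39.7 for Col6a1, 34.5 for Col1a1 and 30.4 for Col1a2. Col4a1 was above Col4a2 in every library, while the ranges of Col3a1, Col6a1, Col1a1 and Col1a2 ran into those of their neighbours in the order. In muscle Col3a1 (19.6), Col4a1 (18.4), Col1a2 (16.2) and Col1a1 (15.8) were close together, and their ranges overlapped. Liver was led by Col14a1 (10.0, range 1.87 to 12.6), ahead of Col3a1 (4.18) and Col18a1 (3.40), again with overlapping ranges. In the gut the highest medians were 0.876 for Col3a1 in duodenum, 1.73 for Col3a1 in jejunum and 0.408 for Col20a1 in ileum.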

How the data were processed

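RNA was sequenced from subcutaneous white fat (WAT), gastrocnemius muscle, liver, duodenum, jejunum and ileum of male mice after RYGB or sham surgery, in 51 libraries. Per the submitters' processing notes, the authors counted reads with HTSeq (version not given) on GRCm38; the sources used here do not give the aligner, annotation or strand setting. The authors deposited CPM (counts per gene per total counts), rounded to 1 decimal, in a table per tissue that holds only genes at 1 CPM or more in enough libraries; this floor was checked on each table. Depth is unknown, as the tables hold no counts, and no count test was run. Repeated lines (374 in WAT and 339 in ileum) and lines without an identifier (6 in liver and 2 in ileum) were dropped. CPM sums per library were 978900 to 993600.

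From these values log2(CPM + 1) was taken and RYGB compared with sham per tissue with limma 3.58.1 in R 4.3.3, Benjamini-Hochberg adjustment running over all genes of the table; fold changes on this scale understate those of low genes. Differences between tissues used the animals with both tissues and the animal as a block. Levels between genes are CPM per kilobase of GENCODE M21 exon. Correlations between tissues used Python 3.11.15 and an exact permutation within groups. The fit was tested on simulated data. Alternatives were median-of-ratios scaling, a pseudocount of 0.1, genes with a mean of at least 5 CPM, library weights, removal of the trend with exon length, the replicate number as a block, and each library left out. Values per library are given for collagens past the threshold in WAT and the 5 with the highest mean CPM of each tissue. From the other gene lists (partners and cell markers; 31 lists in all, collagen classes included) up to 4 genes with the smallest p and 2 with the highest CPM per tissue were named. The members and lists were chosen with earlier results of these data known. Each replicate is another animal and the labels used here name no batch, so p-values rest on how these animals vary.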

Additional observations from a re-analysis of the deposited data

Results flagged for a closer look

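Among 73 groups of 4 or 5 libraries tested, 2 had 1 library far from the others, and chance flags about 1 in 20 such groups. Col14a1 in RYGB liver had 34.5 CPM in R2, against 69.1 to 86.2 CPM in the other 4 RYGB libraries. Col3a1 in RYGB muscle had 35 CPM in R2, against 399.9 to 544.2 CPM in the other 3.

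Between tissues, 15 RYGB effects on collagens differed by the test of the difference itself (limma adjusted p below 0.05). In WAT minus muscle the differences of log2 fold changes were -1.09 for Col5a2, -1.75 for Col18a1, -1.68 for Col8a1, -1.73 for Col16a1 and -1.48 for Col4a3. In WAT minus liver they were -1.55 for Col4a1, -2.85 for Col18a1 and 1.95 for Col27a1. In WAT minus jejunum they were -1.98 for Col4a2, -2.61 for Col1a2, -2.30 for Col1a1, -2.24 for Col5a2, -2.53 for Col18a1, 1.68 for Col20a1 and 1.23 for Col7a1. Of the collagens tested in all 3 comparisons, which share the WAT libraries, only Col18a1 passed in each. Col16a1 and Col4a3 could be tested against muscle only, and Col8a1 not against jejunum. In WAT minus liver Col18a1 failed in 5 of the 8 fits with an animal left out. RYGB levels of Col18a1 in WAT were 28.9 to 63.6 CPM, against 82.2 to 166.6 CPM in sham.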

How the results depend on the processing

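No collagen call or difference past the threshold changed direction under any alternative. Some collagens that did not pass changed sign. In WAT, Col4a1 went from -0.17 to 0.015 with scaling and 0.19 with the length trend removed. Col4a2 went from -0.18 to 0.0088 and 0.14, and Col1a2 from -0.02 to 0.16 and 0.51, in the same settings. The collagen medians, which carry no test, did change sign: in WAT to 0.0088 with scaling and 0.11 with the length trend removed, in muscle to -0.07 without R3, and in duodenum, where it was -0.28, to 0.29 with the filter of 5 CPM, 0.02 with the replicate block or without W3, and 0.05 without R5. In ileum the median of -0.12 became 0.51 with the replicate block, 0.35 with library weights and 0.00077 with the length trend removed. The WAT count of 8 collagens became 4 of 20 when genes below a mean of 5 CPM were left out, against 45.0% of all genes. Of the 8, Col4a3, Col4a4, Col4a5 and Col7a1 lie below that mean. With a library left out the count ranged from 6 to 10, beside 31.0% to 48.5% of all genes. Muscle had 0 to 1 and liver 0 to 1 with a library left out, and liver 4 with library weights (31.7% of all genes passed in that fit). Duodenum had 1 with the replicate block (4.03% of all genes), 4 with library weights (19.6% of all genes) and 0 to 1 with a library left out. Jejunum had 0 with the filter of 5 CPM (16.4% of all genes) and 0 with the replicate block (4.30% of all genes). It had 0 to 4 with a library left out, and ileum had 0 throughout. With the filter of 5 CPM the median collagen log2 fold change was 1.04 in liver, over 6 genes, and 1.07 in ileum, over 2. WAT minus muscle had 3 with scaling (12.6% of all genes), 3 without the animal as a block (17.2% of all genes) and 2 to 10 with an animal left out. WAT minus liver had 1 with the pseudocount of 0.1 (8.95% of all genes) and 0 to 4 with an animal left out. WAT minus jejunum had 4 to 11 with an animal left out, beside 23.0% to 30.1% of all genes. The cause of these changes was not tested. Over all genes, leaving out libraries gave 3936 to 6151 calls in WAT, 0 to 24 in muscle, 3 to 2253 in liver, 1 to 982 in duodenum, 484 to 2258 in jejunum and 0 to 46 in ileum. Replicate numbers do not pair the samples: of 22 pairs, 5 had a correlation of deviations over 0.1 and 4 correlated best with their own number. With the replicate block WAT had 9 collagens (32.2% of all genes passed) and Col20a1 in jejunum an adjusted p of 0.0906 in limma. All-gene calls in that setting numbered 7 in liver, 441 in duodenum, 474 in jejunum and 597 in ileum. Library weights gave 3258 calls over all genes in liver and 2140 in duodenum. The list counts under scaling and length were chosen after seeing the data. With depth unknown, a gene listed at 0 cannot be told from one at a low level.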
